A study of Homo sapiens with 6 samples.

Results

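The class III receptor tyrosine kinases and their ligands were examined in mRNA-seq data of Kasumi-1 cells. The family was set as 9 genes by symbol, the 5 receptors KIT, FLT3, CSF1R, PDGFRA and PDGFRB and the 4 ligands KITLG, FLT3LG, CSF1 and IL34. Of these, 8 were matched by Ensembl identifier among the 29810 genes of the deposited table, and IL34 was not analysed here. There were 3 control libraries and 3 libraries of cells incubated with 0.25 μM I3, an inhibitor of histone deacetylases (HDACs). The labels and the methods give 48 h for this incubation, although another passage of the study gives a longer time. The methods give DMSO, at the concentration present in the I3 solution, as the control. Kasumi-1 is a single human AML line with the t(8;21) translocation, so all 6 libraries share the RUNX1-RUNX1T1 fusion and an activating mutation in the kinase domain of KIT. The labels do not say whether the 3 libraries of a group came from separate cultures, so the p-values measure the spread between these libraries, which may be technical.

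Class III receptors have a row of immunoglobulin-like domains outside the cell and a tyrosine kinase domain that is split by an insert. A dimeric ligand joins a pair of receptors, which phosphorylate each other and recruit adaptors, PI3 kinase, SRC family kinases and STAT5. KIT and FLT3 are known for maintaining haematopoietic progenitors, CSF1R for the survival of monocytes and macrophages, and the PDGF receptors for growth of mesenchymal cells. Mutated KIT is a recurrent partner of the t(8;21) fusion in AML.

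FPKM scales fragments to gene length and to library depth, and a comparison between libraries still depends on their composition, so TPM and median-of-ratios scaling were run as alternatives. The depth rebuilt from the values was 17500321 to 18193372 reads per library. The markers of the line were present, with RUNX1T1 at 14.1 to 17.0 FPKM and CD34 at 28.9 to 38.8 FPKM. MPO, a granule enzyme of myeloid precursors, had 7740.2 to 8612.1 FPKM. Of the markers of other cells, EPCAM, an epithelial adhesion protein, had 28.2 to 31.6 FPKM, and CD79A, a B cell receptor subunit, had 0.897 to 1.90 FPKM. The sums of the measured T cell, stromal, endothelial, macrophage and erythroid markers were at or below 1.15 FPKM in every library. PTPRC had 8.03 to 10.7 FPKM and POU4F1 3.69 to 5.77 FPKM. Libraries differed in how levels followed the GC content of the transcripts, with rank correlations across genes from -0.446 in I3 3 to 0.446 in control 2. In bulk RNA, a change in the share of cells and a change in RNA per cell cannot be told apart.

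Of the receptors, 4 lie in neighbouring pairs, and FLT3 and the ligands lie apart. On GRCh38, PDGFRA and KIT stand on chromosome 4 at 54229097 to 54298247 and 54657918 to 54740715, with 359.7 kb and 0 protein-coding genes between them. CSF1R (150053291 to 150113372) and PDGFRB (150113837 to 150155872) stand on the minus strand of chromosome 5 with only 464 bases between them. FLT3 stands on chromosome 13 at 28003274 to 28100592. The ligands KITLG, FLT3LG and CSF1 are on chromosomes 12, 19 and 1. The promoters of the 3 receptors that were expressed are given because HDAC inhibitors act on chromatin and because RUNX1 and PU.1, which are known to act on CSF1R, are present in these cells. The windows are from RefSeq (GRCh38.p14), from 250 bases before to 50 bases after the start, printed 5′ to 3′ on the strand of the gene. For KIT the window is chr4:54657707-54658006 (plus strand), for FLT3 chr13:28100527-28100826 (minus strand) and for the downstream start of CSF1R chr5:150086505-150086804 (minus strand). Capitals mark TGTGGT (RUNX) and GAGGAA (PU.1) on either strand.
KIT: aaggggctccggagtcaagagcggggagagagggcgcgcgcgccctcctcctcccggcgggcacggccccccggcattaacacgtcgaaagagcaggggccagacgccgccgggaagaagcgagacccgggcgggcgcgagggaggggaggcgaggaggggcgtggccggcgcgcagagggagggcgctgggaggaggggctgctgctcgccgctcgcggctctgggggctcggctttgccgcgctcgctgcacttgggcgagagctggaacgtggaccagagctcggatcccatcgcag
FLT3: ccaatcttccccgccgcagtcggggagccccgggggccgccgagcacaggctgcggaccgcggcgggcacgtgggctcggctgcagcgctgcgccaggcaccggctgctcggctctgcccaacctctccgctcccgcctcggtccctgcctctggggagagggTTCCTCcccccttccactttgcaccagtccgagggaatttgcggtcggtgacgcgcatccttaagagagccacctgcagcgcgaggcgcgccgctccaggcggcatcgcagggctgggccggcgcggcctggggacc
CSF1R: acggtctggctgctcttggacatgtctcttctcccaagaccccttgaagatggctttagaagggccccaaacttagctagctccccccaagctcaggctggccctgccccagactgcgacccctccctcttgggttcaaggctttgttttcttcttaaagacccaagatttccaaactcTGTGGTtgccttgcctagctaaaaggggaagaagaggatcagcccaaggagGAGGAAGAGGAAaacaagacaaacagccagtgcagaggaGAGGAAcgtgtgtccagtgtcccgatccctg

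The KIT window had a GC content of 74.3% and 38 CpG, against medians of 58.7% and 14 CpG over 34943 promoters of the same length, and held neither motif. It had 1 GC box (GGGCGG), a motif in 44.9% of promoters. FLT3 was similar to KIT in base composition, with 74.0% GC and 34 CpG, and held GAGGAA 1 time on the opposite strand. CSF1R has a pair of starts in the table. The window of the upstream start (chr5:150113316-150113615) had 62.3% GC and 8 CpG and held 1 GC box and neither TGTGGT nor GAGGAA. That of the downstream start, printed because it holds both motifs, had 54.0% GC and 4 CpG. It held TGTGGT at position -71 and GAGGAA 3 times, at -20 and -14, which stand end to end, and at 20, counted from the start. None of these copies overlapped another motif searched. TGTGGT was present in 13.1%, GAGGAA in 27.9% and both in 3.76% of all promoters. Among the windows of the matched receptors and ligands, the GATA motif AGATAA was in none, against 10.4% of all promoters. The E box CACGTG was only in that of FLT3, against 7.23% of all. The TATA motif TATAAA was only in that of KITLG, against 11.6%. CSF1 and IL34 had no window in the table. These matches describe letters and were not tested as binding sites. RUNX1 had 30.6 to 35.0 FPKM and SPI1, which encodes PU.1, had 63.2 to 95.6 FPKM over the 6 libraries. These 2 genes are named for their motifs, and reads of the fusion can count towards RUNX1.

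KIT, the receptor of stem cell factor, had by far the highest level of the family. Its values were 200.7, 197.8 and 214.0 FPKM in control 1, 2 and 3 and 203.2, 201.3 and 224.6 FPKM in I3 1, 2 and 3. The groups overlapped, with control 3 above I3 1 and I3 2, and the highest library of each group was its number 3. KIT stood at rank 142 of the 29810 genes by its mean in control cells. The control libraries held 60143 reads of it and the I3 libraries 62806.

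The control mean of KIT was 204.2 FPKM with an SD of 8.62 FPKM over 3 libraries, against 209.7 FPKM with an SD of 13 FPKM over 3 I3 libraries. On the log2(FPKM + 0.5) scale, I3 minus control was 0.038 with a standard error of 0.0617, and the adjusted p was 0.998 from limma with Benjamini-Hochberg adjustment over 12960 genes. The 95% interval ran from -0.11 to 0.18, which is 0.928-fold to 1.13-fold. The two-sided exact permutation p was 0.5, where 3 against 3 libraries cannot go below 0.1. The ratio of the summed reads was 1.03 with an exact interval of 1.02 to 1.04. This interval covers counting error only and leaves out the spread between libraries, which was larger than the difference.

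**Figure D1:**
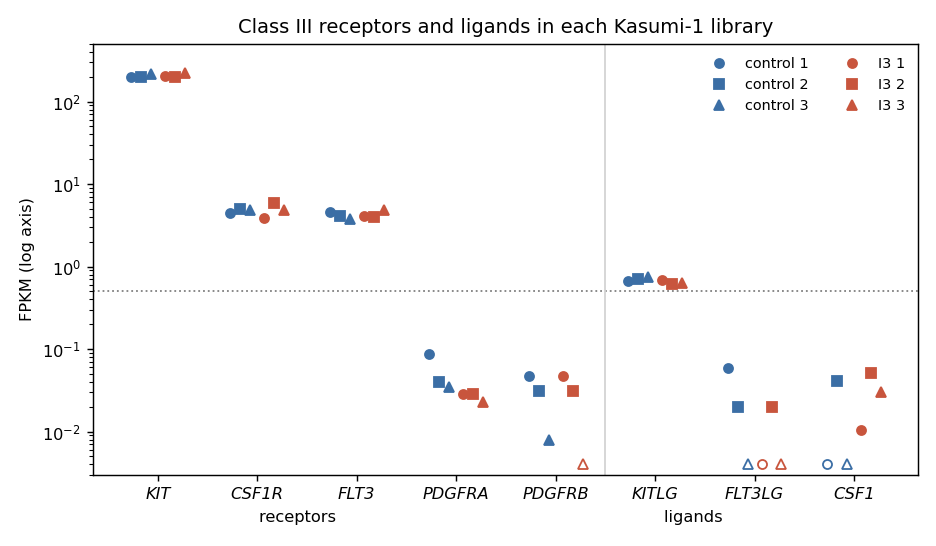
Level of each gene in each library, in FPKM on a log axis, for 5 receptors (left) and 3 ligands (right), with control libraries in blue and I3 libraries in red. Open symbols near the bottom are values listed at 0, the dotted line is the minimum mean of 0.5 FPKM, and KIT lies near 200 FPKM, at least 34.5 times CSF1R in every library.

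FLT3, the receptor of FLT3 ligand on early progenitors, had 4.56, 4.15 and 3.81 FPKM in the control libraries and 4.10, 3.97 and 4.84 FPKM in the I3 libraries. The groups overlapped, although I3 3 lay above all controls and control 3 lay below all I3 libraries. Control cells averaged 4.17 ± 0.378 FPKM from 919 reads and I3 cells 4.30 ± 0.466 FPKM from 964 reads (SD over 3 libraries). This is a log2 fold change of 0.039 with an interval of -0.20 to 0.27, and the limma adjusted p was 0.998.

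CSF1R, the receptor of CSF1 and IL34, had 4.46, 5.06 and 4.84 FPKM in control cells and 3.91, 5.84 and 4.92 FPKM after I3. I3 libraries were both the lowest and the highest of the 6, and the SD after I3 (0.963 FPKM, n = 3) was larger than that in control cells (0.302 FPKM, n = 3). The means were 4.79 and 4.89 FPKM, a log2 fold change of 0.014 with an interval of -0.30 to 0.33 (limma adjusted p = 0.999). The sign depended on single libraries, with -0.111 without I3 2 and -0.031 without control 1, against 0.150 without I3 1. RPL7P1, a processed pseudogene on the opposite strand inside CSF1R, had a mean of 313.5 FPKM in control cells but shares 0 exon bases with it. Reads of such a pseudogene and of its parent gene are hard to tell apart.

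The PDGF receptors were close to the limit of detection. PDGFRA had 0.0873, 0.0404 and 0.0352 FPKM in control cells and 0.0288, 0.0289 and 0.0226 FPKM after I3. Rebuilt into reads, the controls held 15, 7 and 6 and the I3 libraries 5, 5 and 4. All 3 I3 libraries lay below all 3 controls, although I3 1 and control 3 were only 1 read apart and control 1 held more than the other 2 controls together. The ratio of 14 to 28 reads was 0.492, with an exact 95% interval of 0.239 to 0.967 for counting error only, and the exact permutation p was 0.1. PDGFRA was under the minimum of 0.5 FPKM, so its log2 fold change of -0.072 comes from the fit without a minimum (interval -0.20 to 0.06, limma adjusted p = 0.898). Without control 1 it was -0.030. Over the 26609 genes above 0 in any library, 7.55% had groups that did not overlap, and 3.63% had I3 libraries that all lay below the controls. Of the exon bases of PDGFRA, 15.8% are shared on the same strand with an overlapping gene that was not analysed here.

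For PDGFRB the controls held 6, 4 and 1 reads and the I3 libraries 6, 4 and 0, or 0.0290 and 0.0262 FPKM on average. The ratio of reads was 0.895 with an interval of 0.341 to 2.32. No change was detectable at this depth.

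**Figure D2:**
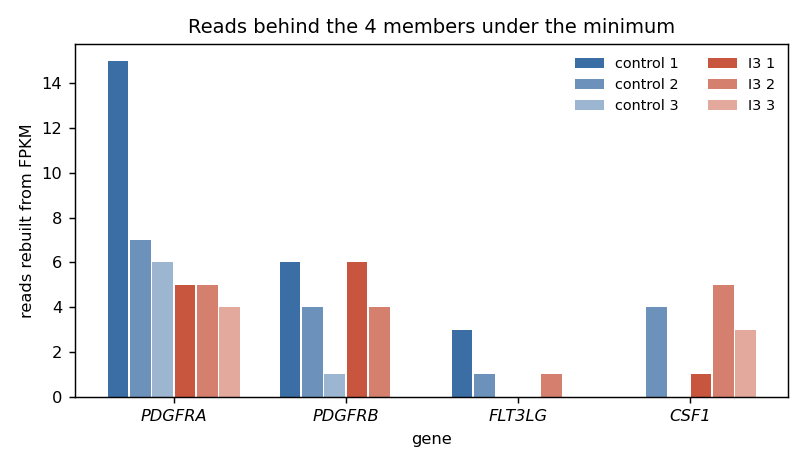
Reads rebuilt from FPKM for the 4 genes under the minimum of 0.5 FPKM, 1 bar per library, with control libraries in blue and I3 libraries in red (replicates 1 to 3 from dark to light). PDGFRA has 15 reads in control 1 and 4 to 7 reads in the other 5 libraries, and no bar stands where a gene is listed at 0.

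All 3 measured ligands of the family were below KIT, CSF1R and FLT3. KITLG, which encodes stem cell factor, was the only one over the minimum, with 0.667, 0.708 and 0.758 FPKM in control cells and 0.698, 0.615 and 0.638 FPKM after I3. Of the I3 libraries, I3 2 and I3 3 lay below all controls and I3 1 lay among them. Its log2 fold change was -0.074 with a standard error of 0.149 and an interval of -0.42 to 0.28 (limma adjusted p = 0.998). It was negative in all 15 alternatives, from -0.148 to -0.046, and in none of them did it pass the thresholds. KIT exceeded its ligand 279.3 to 352.1 times in single libraries. Rebuilt reads of KITLG were not whole at the exon length of GENCODE, which may differ from that of the authors, so no read counts are given for it.

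For FLT3LG, the ligand of FLT3, the controls held 3, 1 and 0 reads and the I3 libraries 0, 1 and 0. Its level of 0.0265 FPKM in control cells is uncertain, because 28.1% of its exon bases are shared on the same strand with AC010619.2 and 11.9% with AC010619.1. How the authors counted reads that fall on both genes was not tested. For CSF1, the growth factor of macrophages, the controls held 0, 4 and 0 reads and the I3 libraries 1, 5 and 3. The ratio of its reads was 2.21 with an interval of 0.618 to 9.84. Neither gene differed detectably, and a floor of 3 reads in a library corresponds to 0.0602 FPKM for FLT3LG and 0.0316 FPKM for CSF1.

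The PDGF ligands differed among themselves. PDGFC had 3.08, 3.75 and 3.25 FPKM in control cells and 3.02, 3.32 and 2.94 FPKM after I3, a level near that of FLT3. Its log2 fold change was -0.10 (limma adjusted p = 0.998). PDGFA had 0.0271 to 0.217 FPKM and PDGFD at most 0.0395 FPKM, and PDGFB was listed at 0 in all 6 libraries. PDGFC thus had more mRNA than both of its receptors, PDGFRA and PDGFRB, in every library.

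In order of the control means, KIT was followed by CSF1R, FLT3, KITLG, PDGFRA, PDGFRB, FLT3LG and CSF1. KIT was 42.7 times CSF1R. CSF1R and FLT3 had overlapping ranges and were in this order in 4 of 6 libraries. FLT3 was 5.87 times KITLG, and KITLG was 13.1 times PDGFRA, each without overlap in any library. Neighbours in the last 4 places overlapped and cannot be ordered.

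The comparison of I3 with control cells called none of the family. Of the 8 genes, 4 passed the minimum and were tested, and 0 of these passed an adjusted p of 0.05 with a log2 fold change of 0.58, the thresholds of the methods. The same was true of 0.0% of the 12960 genes tested by limma, and voom on rebuilt reads also called 0. The paper reports genes called in both directions with DESeq, which was not run here. At an unadjusted p under 0.05 there were 0 of the 4 genes, against 4.93% of all tested genes (639). With the fold threshold added, there were 0 of the 4 genes against 1.40% of all tested. Groups that did not overlap were seen in 0 of the 4 genes and in 9.70% of all tested (5.06% higher and 4.64% lower). The intervals of all 4 lay within 0.58 in either direction on the scale of the fit. For KIT, FLT3 and CSF1R, a change of the size set as the threshold is therefore outside the interval. KITLG averaged only 0.711 FPKM in control cells, where the constant added to FPKM shrinks the scale. Its interval of -0.42 to 0.28 therefore does not exclude a fall of the threshold size. KIT had the narrowest interval and KITLG the widest.

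**Figure D3:**
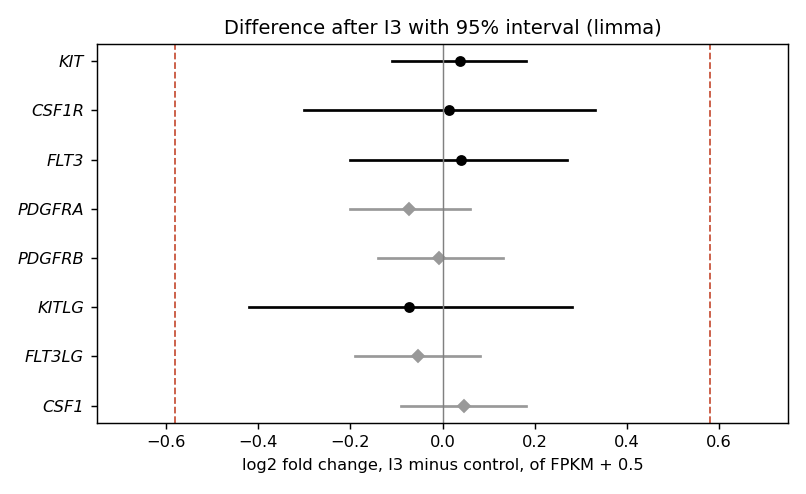
Log2 fold change (I3 minus control, of FPKM + 0.5) with its 95% interval from limma for 8 genes. Black circles passed the minimum of 0.5 FPKM and grey diamonds come from the fit without a minimum. The added 0.5 FPKM shrinks the scale for the diamonds and for KITLG, and no interval reaches the dashed lines at 0.58 in either direction.

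The place of the family among all receptor tyrosine kinases was examined next. Of 58 human receptor tyrosine kinases listed, 49 were measured. KIT alone made up 69.5% to 71.8% of their summed FPKM in the 6 libraries, and it was 12 to 16.3 times the next receptor. CSF1R and FLT3 stood at ranks 10 and 11, and PDGFRA at rank 29. The other receptors with at least 5 FPKM in control cells were RET (14.6 ± 2.11 FPKM), the insulin-like growth factor receptor IGF1R (11.1 ± 0.577), the ephrin receptor EPHB4 (9.75 ± 0.679), the WNT co-receptor RYK (8.04 ± 0.316), FGFR1 (7.17 ± 0.40), PTK7 (5.91 ± 0.39), LMTK2 (5.81 ± 0.313) and the insulin receptor INSR (5.51 ± 0.11), each as the mean and SD of 3 libraries. In total, 32 receptors had less than 0.5 FPKM.

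Receptor levels differed sharply between neighbours on the chromosome. KIT stood at 204.2 FPKM, whereas PDGFRA on its one side had 0.0543 FPKM and KDR on its other side, at a distance of 337.5 kb, had 0.00299 FPKM in control cells. CSF1R had 4.79 FPKM against 0.0290 FPKM for PDGFRB next to it. FLT3 and FLT1, the VEGF receptor that lies 199.8 kb from it, were closer, at 4.17 and 1.09 FPKM. None of the 14 other receptors tested had an unadjusted p under 0.05 in limma, against 4.93% of all tested genes, and their median log2 fold change was 0.003, against 0.026 for the 4 tested genes of the class III family and 0.011 for all tested genes. The lowest unadjusted p was 0.0591, for IGF1R (log2 fold change 0.14), whose I3 libraries all lay above the controls, as in 5.06% of all tested genes. For IGF1R the unadjusted p in limma was 0.0372 without a minimum, 0.0458 with TPM and 0.0289 with the trend on GC content removed. It was 0.0455 in voom, 0.107 with median-of-ratios scaling, 0.0639 with a minimum of 5 FPKM and 0.0826 in limma without trend. With a library left out it was 0.0644 to 0.161. None of these passed adjustment.

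**Figure D4:**
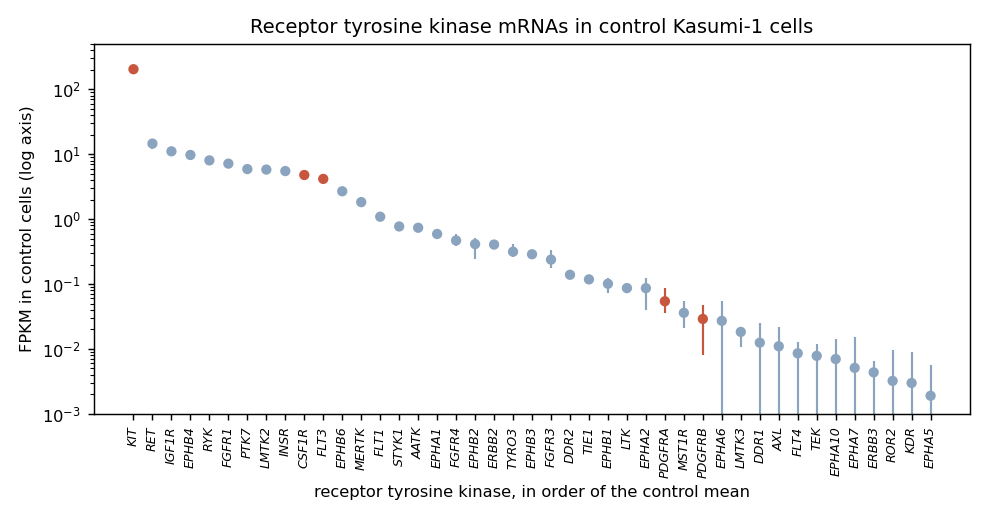
Mean FPKM in control cells on a log axis for the 43 receptor tyrosine kinases with a control mean above 0, in descending order, with lines from the lowest to the highest of the 3 control libraries. Class III receptors are red and the others blue-grey, and KIT at 204.2 FPKM stands apart from RET at 14.6 FPKM.

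Since the receptors resemble each other, the coding sequences were compared for stretches that could draw reads of one to another. The longest run of identical bases that KIT shares with another class III receptor was 18 bases, with FLT3. The longest over all pairs was 23 bases, between PDGFRA and PDGFRB. Both runs are given to show how short they are, from transcripts of GENCODE release 29, in the 5′ to 3′ direction. Capitals mark the codons of the conserved DFG motif, which binds the magnesium of ATP in the active site.
KIT and FLT3: tgttgctatggtgatctt
PDGFRA and PDGFRB: aagatctgtGACTTTGGCctggc

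The other pairs shared 14 to 19 bases. The sources used here do not give the read length.

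Genes that carry or limit the signal of these receptors were examined as lists. Of 32 adaptors and proximal effectors, 27 were tested and 0 had an unadjusted p under 0.05, against 4.93% of all tested genes, with a median log2 fold change of 0.008. The docking protein GAB1 averaged 2.13 FPKM (SD 0.15) over the controls and 2.53 FPKM (SD 0.216) over the I3 libraries, a log2 fold change of 0.21 with a limma adjusted p of 0.998. LYN, a SRC family kinase that binds KIT, had a log2 fold change of -0.13, and the kinase FER had 0.15. Groups did not overlap for 1 higher gene of this list, FER, and 1 lower gene, against 5.06% higher and 4.64% lower of all tested genes.

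Of 16 negative regulators, 13 were tested, of which 1 was lower and 0 were higher at an unadjusted p under 0.05, against 2.85% lower and 2.08% higher among all tested genes. This gene was PTPN6, which encodes the phosphatase SHP-1. It had 12, 13.2 and 12.4 FPKM in control cells and 10.9, 11.4 and 10.5 FPKM after I3, with all I3 libraries below all controls, as in 4.64% of all tested genes. The change on the log2 scale was -0.19 (standard error 0.0636, unadjusted p = 0.0207, adjusted p = 0.928 from limma), and it did not pass the adjusted test. With the trend on GC content removed, the log2 fold change was -0.137 (unadjusted p = 0.0154, adjusted p = 0.73 from limma). Without control 2, I3 1 or I3 3 the unadjusted p of PTPN6 was 0.0762, 0.0552 and 0.0687. CBL, the ubiquitin ligase that marks activated KIT for degradation, had a log2 fold change of 0.11 and the adaptor SLA2 had -0.14. All I3 libraries of CBL lay above all controls, as in 5.06% of all tested genes.

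Of 12 STAT5 target genes, 9 were tested and 0 had an unadjusted p under 0.05, against 4.93% of all tested genes. The median log2 fold change was -0.063 against 0.011 for all tested genes, with 7 of the 9 below 0, against 5934 of the 12960. CISH, a feedback inhibitor, averaged 3.26 FPKM (SD 0.21) over the controls and 2.85 FPKM (SD 0.164) over the I3 libraries, with all I3 libraries below all controls (4.64% of all tested genes). BCL2L1, which encodes the survival protein BCL-XL, had a log2 fold change of -0.16 and the kinase PIM2 had -0.13. None passed the adjusted test in limma, where the smallest adjusted p of this list was 0.998.

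Proteases that shed or process the receptors and ligands had 6 of 8 genes tested, with 0 at an unadjusted p under 0.05 (4.93% of all tested genes) and a median of 0.007. ADAM10 had a log2 fold change of 0.15, FURIN -0.026 and NCSTN, a gamma-secretase subunit, 0.013. The chaperones on which mutated KIT is known to rely, HSP90AA1, HSP90AB1 and CDC37, had log2 fold changes of 0.005, -0.045 and -0.075. SDC1, a co-receptor of IL34, averaged 14.6 FPKM (SD 1.07) over the controls and 13.2 FPKM (SD 2.31) over the I3 libraries.

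Of 12 transcription factors that are known to act on KIT or CSF1R, 11 were tested, with 0 higher and 2 lower at an unadjusted p under 0.05, against 2.08% higher and 2.85% lower among all tested genes. LMO2, a bridging protein of the TAL1 complex, had 44.4, 43.3 and 45.8 FPKM in control cells and 39.7, 37.0 and 33.5 FPKM after I3. Every I3 library lay below every control, as in 4.64% of all tested genes. I3 minus control was -0.28 on the log2 scale (standard error 0.0708, unadjusted p = 0.00544), and with an adjusted p of 0.768 from limma it did not pass. Leaving out each library in turn gave -0.333 to -0.213.

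LYL1, a partner of LMO2, had 105.5, 112.7 and 109.5 FPKM in control cells and 101.8, 95.5 and 76.0 FPKM after I3. The change was -0.27 on the log2 scale (standard error 0.105, unadjusted p = 0.0356, limma adjusted p = 0.998). I3 3 was the lowest, and without it the log2 fold change was -0.147. With the trend on GC content removed it was -0.128 with an unadjusted p of 0.0881. The GC content of LYL1 transcripts is 69.2%, and I3 3 had the lowest correlation with GC content of all libraries. The part of this in the result was not tested further. Without control 1, 2 or 3 its unadjusted p was 0.0511, 0.0924 and 0.079. SP1 had a log2 fold change of 0.093.

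**Figure D5:**
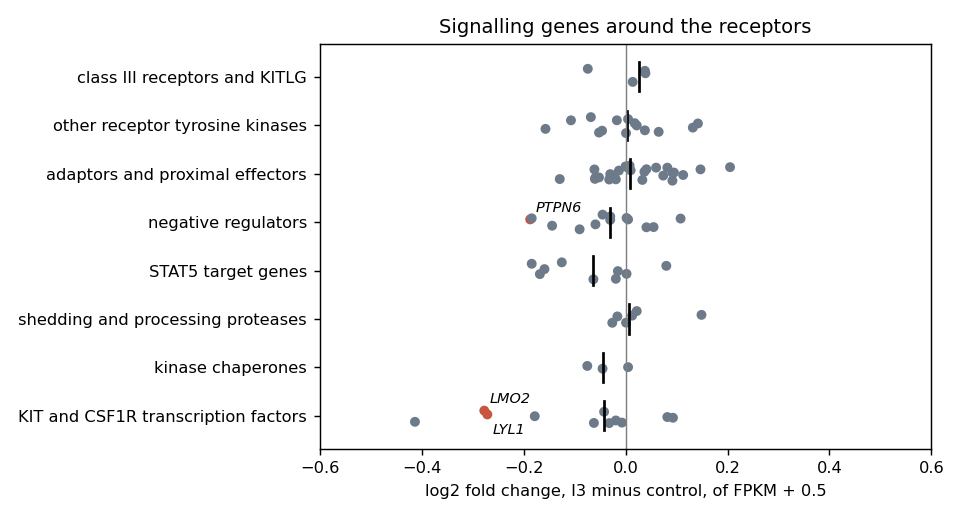
Log2 fold change (I3 minus control, of FPKM + 0.5) of each tested gene in 8 lists, 1 point per gene, with the median as a black line and height within a row at random. The 3 genes at an unadjusted p under 0.05 are red (PTPN6, LMO2 and LYL1), none of which passed the adjusted test, and the 4 genes in the top row lie between -0.074 and 0.039.

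The genes whose levels over the 6 libraries were most like KIT were ERLIN2 (Pearson r = 0.985), FAM184B (0.979) and NAT1 (0.970), on log2(FPKM + 0.5). ERLIN2 had 14.9, 14.9 and 15.6 FPKM in control cells and 15.2, 15.2 and 16.2 FPKM after I3. With 6 libraries and 12960 genes, values this high are a description only.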

How the data were processed

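mRNA-seq was analysed for 3 control and 3 I3 libraries of Kasumi-1 cells. The authors used a stranded mRNA kit and deposited the values as FPKM, 1 column per library. The submitters' processing notes name hg38, Trimmomatic, HISAT2, Cufflinks and HTSeq, without roles, and the methods name DESeq for differential expression. The sources used here do not give the annotation. Groups and replicate numbers are those of the sample titles.

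Identifiers were matched to GENCODE release 29 (GRCh38). Of 29810 genes, 29703 were found there and 29507 had a symbol. FPKM is not a count, so limma 3.58.1 (lmFit, eBayes with trend, R 4.3.3) was run on log2(FPKM + 0.5) for the 12960 genes whose mean was 0.5 FPKM or more, and p-values were adjusted over all of them by the Benjamini-Hochberg method. Genes under the minimum were taken from the same fit without it. A fold change on this scale understates that of low genes. Exact permutation tests used scipy 1.17.1. Reads were rebuilt from FPKM and exon length, and 95.8% of 26519 genes were whole in all libraries at a tolerance of 0.1 read. Intervals of read ratios are exact binomial, and like the floors they cover counting error only. Python 3.11.15 was used with pandas 2.3.3, statsmodels 0.14.6 (lowess, span 0.3) and matplotlib 3.10.9. The limma fit was also run on simulated data without GC trends, with planted changes larger than those of the 4 tested genes. That run does not show how the fit handles changes as small as theirs.

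The genes, lists, tests and alternatives were chosen with earlier results of these data known. Named genes are the family, the PDGF ligands, other receptors with at least 5 FPKM in control cells, in each signalling list the genes at an unadjusted p under 0.05 or, where these are fewer than 3, the 3 with the smallest p, the 3 genes most like KIT, and overlapping or neighbouring genes. RUNX1, SPI1 and the markers are named beside these. Alternatives were other pseudocounts, minimums and scalings, a correction for GC content, voom on rebuilt reads, no trend, a replicate block and each library left out.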

Additional observations from a re-analysis of the deposited data

How the results depend on the processing

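The log2 fold change of each gene of the family was recomputed under 15 or 16 alternatives, and in none did any of the 8 genes pass an adjusted p of 0.05 with the fold threshold, or an unadjusted p under 0.05 with it. KITLG and PDGFRA stayed negative and CSF1 positive in all of them. Small differences changed sign. With the trend on GC content removed, KIT had -3.1e-05, FLT3 -0.002, FLT3LG 0.002 and PDGFRB 0.013. With single libraries left out, KIT ranged from -0.013 (without I3 3) to 0.072. FLT3 ranged from -0.039 (without I3 3, and -0.018 without control 3) to 0.098, CSF1R from -0.111 (without I3 2, and -0.031 without control 1) to 0.150, FLT3LG from -0.091 to -0.009 and PDGFRB from -0.037 to 0.028 (without I3 3, and 0.017 without control 1). Values of the 4 genes under the minimum depended on the scale, with -0.849 for PDGFRA, 1.541 for CSF1, -0.956 for FLT3LG and -0.558 for PDGFRB in voom on rebuilt reads, where no 0.5 FPKM is added. Leaving out a library called 0 or 1 genes of the whole table higher (1 without control 1) and 0 to 2 lower (2 without I3 1, 1 without I3 2). At an unadjusted p under 0.05 with the fold threshold, 98 genes were higher and 84 lower. The higher genes became 62 with a pseudocount of 1, 6 with a minimum of 5 FPKM and 229 with TPM (91 to 145 with a library left out), and the lower genes became 24 with that minimum and 162 with TPM (73 to 132, with 132 without I3 1). Without the fold threshold, 639 genes became 1038 without a minimum, 302 with a minimum of 5 FPKM and 461 to 1417 with a library left out (1417 without control 1). The cause was not tested, beyond the number of genes each minimum leaves. The TPM alternative kept the pseudocount and the minimum at 0.5. The FPKM of a library summed to at most 283488, so TPM values were larger and both settings lay lower on the FPKM scale. Their part in the counts with TPM was not tested. The replicate block gave 856 genes without and 0 with adjustment, and left each log2 fold change as it was. Same-numbered libraries were not shown to be paired, since their deviations correlated at 0.0634, 0.151 and -0.0239 and control 1 correlated best with I3 3 (0.101). Depth limits the 4 genes under the minimum, of which none had more than 15 reads in a library.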
